A study of Mus musculus with 15 samples.

Results

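The genes described here are 51 genes of mitosis and of the mitotic spindle, measured by RNA sequencing in microglia grown from mouse embryonic stem cells. They are a fixed list of gene symbols, chosen by name but with earlier results of these data known. All 51 were among the 11201 genes of the deposited table. They cover 8 roles: kinases and cyclins of mitotic entry (10 genes), spindle checkpoint kinases (3), the chromosomal passenger complex (4), centromere and kinetochore proteins (7), kinesin motors (10), spindle, midzone and cytokinesis proteins (8), anaphase machinery and cohesion (5) and mitotic chromosome proteins (4).

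The study set microglia in differently activated states side by side. The cells, called ESdM in the labels, came from C57BL/6-ATCC embryonic stem cells and were kept in serum-free N2 medium. They were exposed for 24 hours to LPS+IFNg (500 ng/ml bacterial lipopolysaccharide with 20 ng/ml interferon gamma, 3 libraries), IL4 (100 U/ml interleukin 4, 3 libraries) or TGFb (50 ng/ml transforming growth factor beta, 3 libraries), or were left untreated (6 libraries). All groups share the stem cell line and the medium, and only 1 time point was sampled. Nothing in the labels ties a library to its own culture dish, so every p-value here measures the spread between libraries, which may be technical.

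As background, a cell enters mitosis when cyclin B bound to the kinase Cdk1 is switched on by Cdc25 phosphatases. Kinesin motors and microtubule-binding proteins then build the spindle, kinetochores attach chromosomes to it, and the checkpoint kinases hold back the ubiquitin ligase APC/C and its activator Cdc20 until all are attached. Transcripts of these genes build up as cells pass through G2 and mitosis, under the transcription factors B-MYB and FOXM1 and the MuvB complex, whose CHR promoter element is a known feature of the class. Microglia renew themselves by division in the brain, and such transcripts are widely read as a sign of cycling microglia. RNA from a whole culture cannot tell fewer cycling cells from less of the RNA in each cell, and this holds for every result below.

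The values are normalized read counts per gene, with 2682564 to 18676181 reads per library behind them (median 7589049). All 51 genes passed the filter on low values, and the fewest reads behind any of their values were 6, for Cdc25c. Of 14 listed microglia markers 11 were in the table used, and their summed value was 19893 to 22277 with LPS+IFNg, 24305 to 24791 with IL4, 28181 to 29841 with TGFb and 21580 to 23050 in untreated libraries. Of these, Cx3cr1 and Tmem119, surface proteins of resting brain microglia, averaged 3.30 and 1.86 with LPS+IFNg, 1.49 and 2.03 with IL4, 39.5 and 82.3 with TGFb and 2.60 and 7.62 in untreated libraries. Each was at the deposited floor of 1 in at least 1 LPS+IFNg and 1 IL4 library. The listed markers P2ry12, Sall1 and Fcrls were not in the table used. None of 10 embryonic stem cell, 8 neuron and 8 fibroblast markers is in the table used here, against 2 of 8 for astrocytes, 3 of 8 for oligodendrocytes and 2 of 6 for endothelial cells. Every gene in it reaches at least 11.06 in some library, so absence from it does not show that a gene was silent. The summed endothelial value, nearly all from Vwf, was 695 to 802 with TGFb and 180 to 237 in untreated libraries, and its part in the results was not tested. One library stood apart: the reads of LPS+IFNg replicate 3 differed from those of replicates 1 and 2 with a chi-square per degree of freedom of 26.4 and 27.0, against 2.91 between replicates 1 and 2. IL4 replicates 1 and 3 differed by 7.63, and the other pairs within groups by 1.42 to 3.39.

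By the median over the whole gene set, LPS+IFNg libraries were the highest, TGFb libraries the lowest and IL4 libraries between TGFb and untreated. For each gene the log2(value + 1) of a library was set against the mean of the untreated libraries, and the median over the 51 genes was then taken. It was 0.26, 0.21 and 0.17 in the LPS+IFNg libraries, -0.36, -0.41 and -0.32 in the IL4 libraries, -0.62, -0.68 and -0.69 in the TGFb libraries and between -0.02 and 0.02 in the 6 untreated libraries. The groups did not overlap in this median. The same median over all genes tested lay between -0.01 and 0.02 in every library, in values that were already normalized. Put as a share of all normalized values in a library, the 51 genes took 0.526%, 0.499% and 0.479% with LPS+IFNg, 0.356%, 0.339% and 0.352% with IL4, 0.289%, 0.285% and 0.285% with TGFb, and 0.460% to 0.485% in untreated libraries. By this share LPS+IFNg replicate 3 lay within the untreated range.

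**Figure D1:**
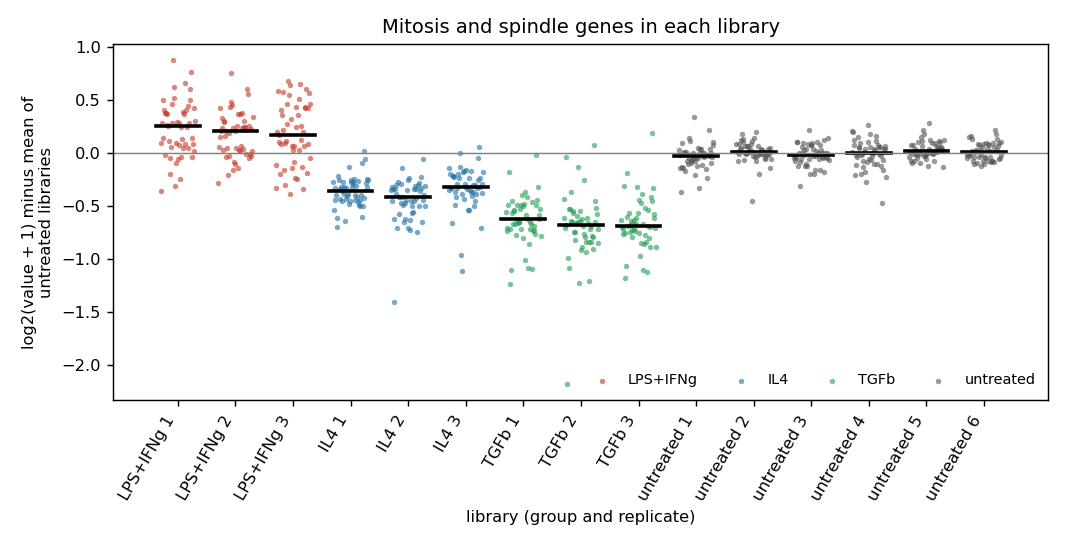
Each dot is 1 of the 51 genes in 1 of the 15 libraries, as log2(value + 1) minus the mean of the untreated libraries, and black bars are medians over the genes. The medians lie at 0.17 to 0.26 with LPS+IFNg, -0.41 to -0.32 with IL4 and -0.69 to -0.62 with TGFb, and at -0.02 to 0.02 in untreated libraries.

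Most of the genes shared 1 order of group means. In 36 of 51 the mean was highest with LPS+IFNg, next in untreated libraries, then with IL4 and lowest with TGFb. LPS+IFNg had the highest mean in 40 genes, and in the other 11 the untreated mean was above it. TGFb had the lowest mean in 46 genes and IL4 in the remaining 5, which were Cdc25b, Cenpf, Ndc80, Spc25 and Pttg1. Neighbours in this order are compared by the tests that follow. There, a gene is said to have risen or fallen only where limma gave a Benjamini-Hochberg adjusted p below 0.05 over all 11138 genes tested. Each log2 fold change was computed from log2(value + 1), which understates changes of low genes, and its error is a standard error of a contrast between 3 stimulated and 6 untreated libraries or between 3 and 3.

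With LPS+IFNg, 21 of the 51 genes rose and 3 fell relative to untreated cells, where 29.5% of all genes tested rose and 29.4% fell. The members' log2 fold changes ran from -0.32 to 0.77 with a median of 0.19, against 0.00 over all genes, so no member changed by as much as a factor of 2. Libraries of the groups did not overlap in 22 higher and 3 lower members, against 25.8% and 24.3% of all genes. Without LPS+IFNg replicate 3, the library that stood apart, 25 members rose and 2 fell, with a median of 0.23. After every library was rescaled to the same total, 17 members rose and 8 fell, where 2435 of all 11138 genes rose and 4416 fell. The members' median was then 0.07 and that of all genes -0.12. The share of all called genes that were higher was then 35.5%, against 50.0% as deposited.

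With IL4, 45 members fell and none rose by the limma test, where 7.33% of all genes fell and 9.89% rose. At an unadjusted p below 0.05 the counts were 48 and 0. Log2 fold changes ran from -0.92 to -0.05 with a median of -0.38, against 0.00 over all genes. In 39 members every IL4 library was below every untreated one, against 10% of all genes, and in 0 members every one was above, against 13%. The 6 members that did not pass were Melk, Cdca8, Spc24, Ect2, Pttg1 and Cdca5. Of all genes called in this comparison 57.4% were higher, and 34.0% after rescaling to the same total, when 47 members fell and none rose.

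TGFb gave the broadest and deepest decrease: 49 members fell and none rose by the limma test, where 23.4% of all genes fell and 24.1% rose. At an unadjusted p below 0.05 the counts were 50 and 0. The log2 fold changes ran from -1.53 to 0.08 with a median of -0.66, against 0.01 over all genes, and 47 members lay below all untreated libraries in every TGFb library, against 22.5% of all genes. None lay above them, against 23.9%. Cdc25b and Pttg1 did not pass. Of all genes called, 50.8% were higher, and 37.8% after rescaling to the same total, when 50 members fell and none rose. The comparisons of the 3 stimuli with untreated cells use the same 6 untreated libraries, so they are not independent of each other.

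**Figure D2:**
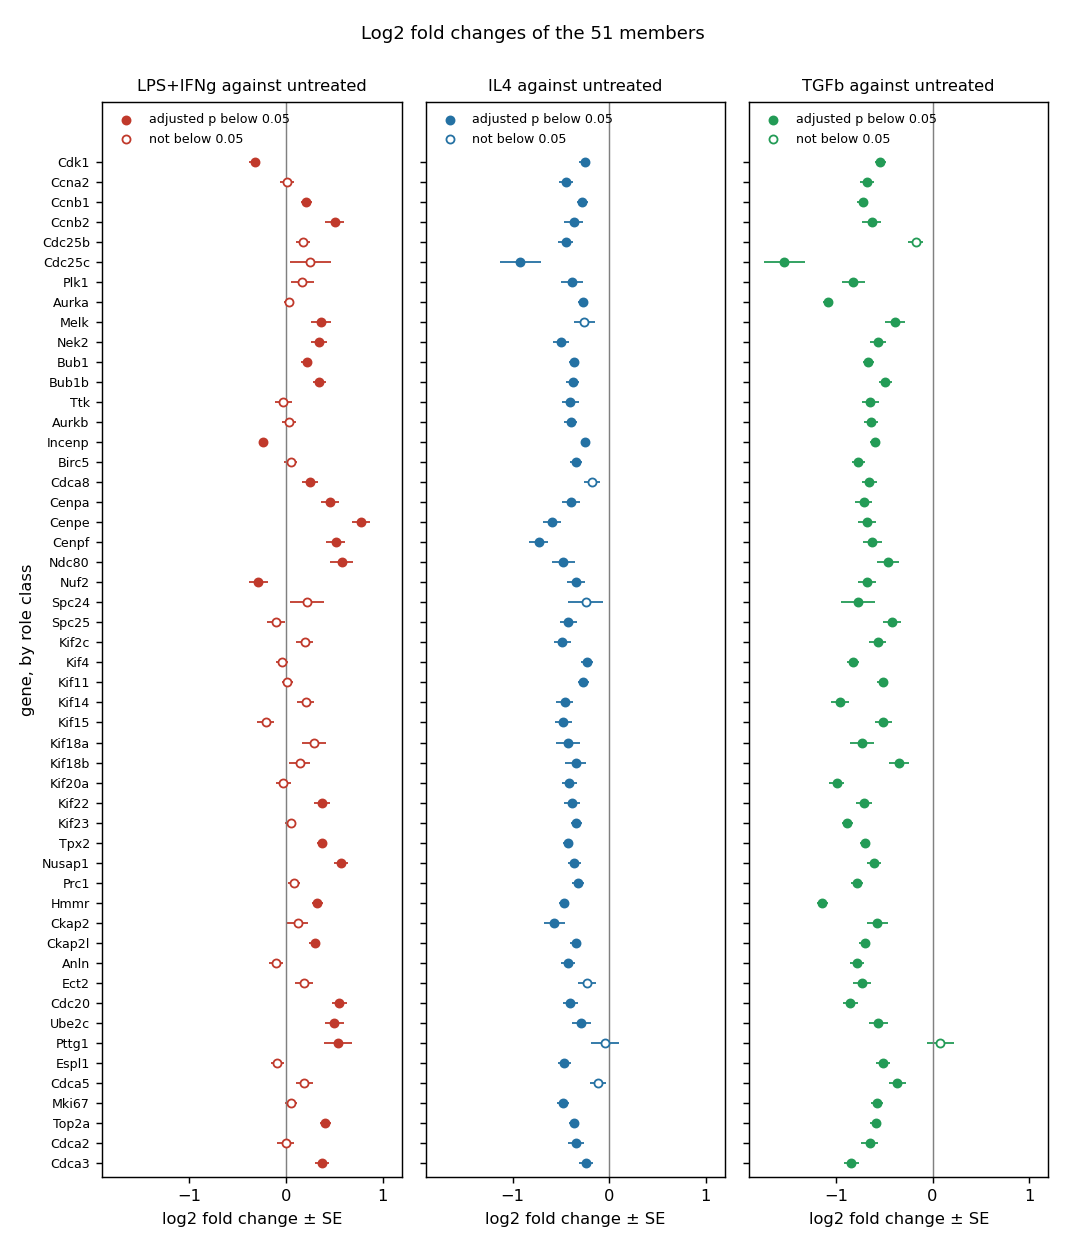
Log2 fold change of each of the 51 genes against untreated cells (dots, with standard error bars), for LPS+IFNg, IL4 and TGFb from left to right; filled dots had a limma adjusted p below 0.05. Filled dots are 21 higher and 3 lower with LPS+IFNg, 45 lower with IL4 and 49 lower with TGFb.

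Taken over the 3 comparisons, 18 genes rose with LPS+IFNg and fell with both IL4 and TGFb: Ccnb1, Ccnb2, Nek2, Bub1, Bub1b, Cenpa, Cenpe, Cenpf, Ndc80, Kif22, Tpx2, Nusap1, Hmmr, Ckap2l, Cdc20, Ube2c, Top2a and Cdca3. A further 23 fell with IL4 and TGFb and did not pass with LPS+IFNg. Cdk1, Incenp and Nuf2 fell with all 3 stimuli. The remaining 7 were Melk and Cdca8 (rose with LPS+IFNg, fell with TGFb), Pttg1 (rose with LPS+IFNg), Cdc25b (fell with IL4) and Spc24, Ect2 and Cdca5 (fell with TGFb).

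The stimuli were also compared with each other, without the untreated libraries on either side. Against IL4, LPS+IFNg libraries were higher in 47 members and lower in none by limma (48 and 0 at an unadjusted p below 0.05), where 28.8% of all genes were higher and 28.8% lower. The median log2 difference was 0.56, and the libraries did not overlap in 48 higher and 0 lower members, against 31.7% and 30.1% of all genes. Against TGFb, LPS+IFNg was higher in all 51 members, where 31.9% of all genes were higher and 30.8% lower. The median was 0.90, and no member overlapped, where 33.9% of all genes had no overlap on the higher side and 32.4% on the lower. IL4 was higher than TGFb in 30 members and lower in 1, where 20.7% of all genes were higher and 19% lower, with a median of 0.29. There was no overlap in 33 higher members and 1 lower, against 28.9% and 26.9% of all genes. That single gene was Cdc25b, with a log2 difference of -0.28, and its call was lost without IL4 replicate 2 (-0.19 (adjusted p = 0.116) by limma) or without TGFb replicate 2 (-0.21 (adjusted p = 0.102) by limma).

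**Figure D3:**
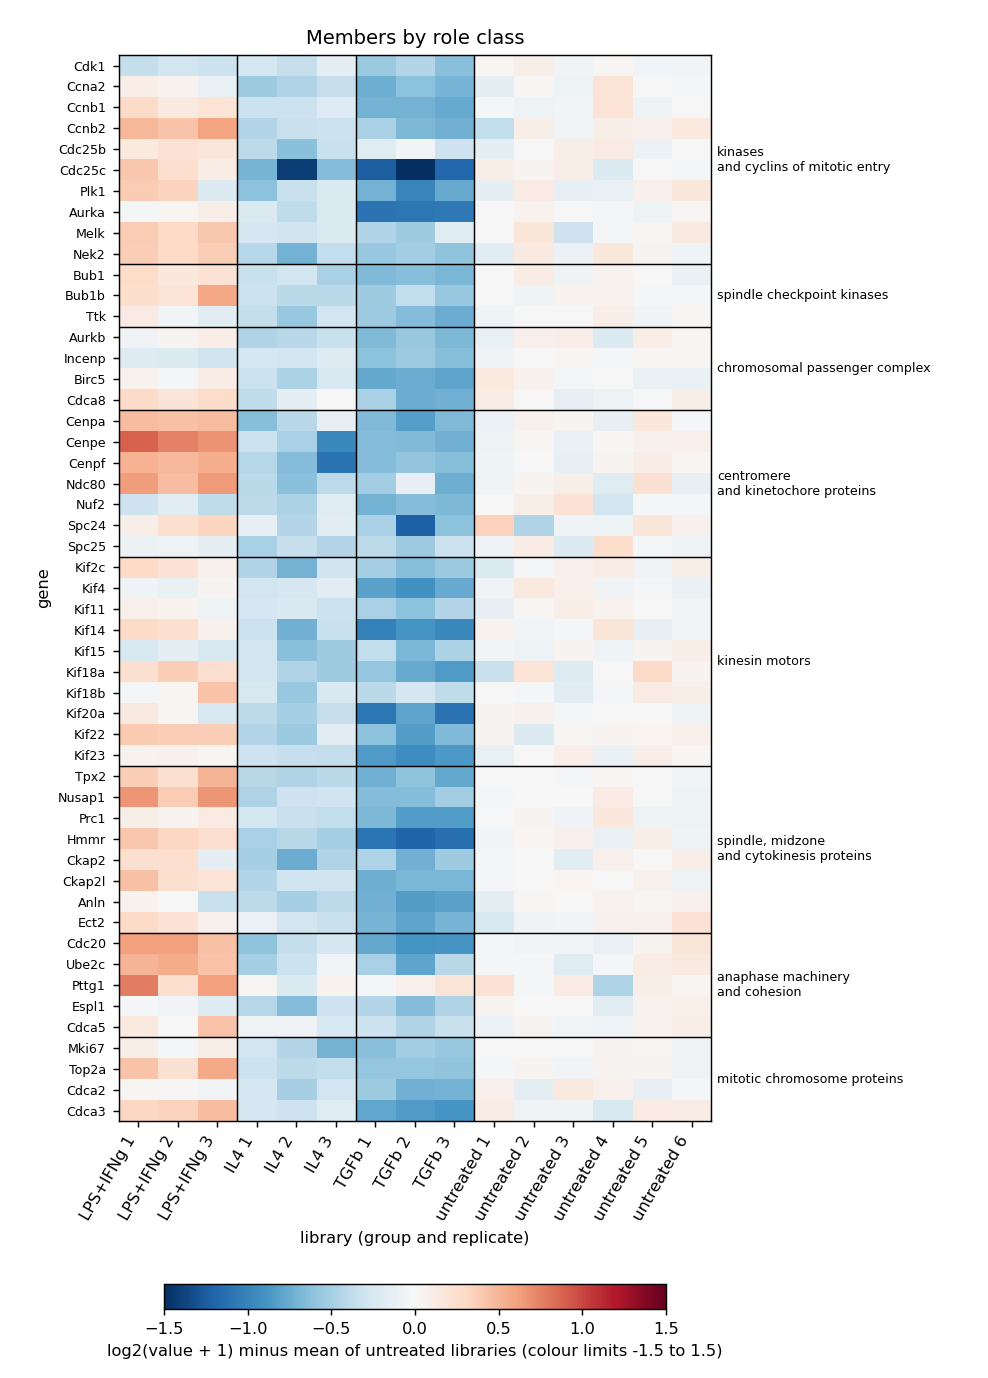
Log2(value + 1) of the 51 genes (rows, by role class) minus the mean of the untreated libraries, in the 15 libraries (columns). TGFb columns are lower in nearly every row, and LPS+IFNg columns hold both higher rows (Cenpe, Cdc20, Nusap1) and lower rows (Cdk1, Incenp, Nuf2).

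The counts by role class that follow are to be read beside the shares over all genes. These were 29.5% higher and 29.4% lower with LPS+IFNg, 7.33% lower with IL4 and 23.4% lower with TGFb. Among the kinases and cyclins of mitotic entry, Cdk1 fell with LPS+IFNg, the cyclin genes Ccnb1 and Ccnb2 rose and Ccna2 did not pass. Cdk1, the kinase that drives entry, had normalized values of 625, 658 and 638 with LPS+IFNg, 663, 628 and 726 with IL4 and 542, 591 and 517 with TGFb. In untreated libraries Cdk1 ran from 773 to 849, with a median of 793. All stimulated libraries were below all untreated ones. The log2 fold change was -0.32 ± 0.06 (limma, adjusted p = 8.22e-05) with LPS+IFNg, -0.25 ± 0.06 (limma, adjusted p = 0.00409) with IL4 and -0.54 ± 0.06 (limma, adjusted p = 2.96e-07) with TGFb. Ccnb1, which encodes cyclin B1 and had the highest mean of its class, had normalized values of 1433, 1301 and 1347 with LPS+IFNg, 936, 937 and 1026 with IL4 and 719.9, 717 and 692 with TGFb. In untreated libraries Ccnb1 ran from 1116 to 1351, with a median of 1150. Its LPS+IFNg values overlapped the untreated range through untreated replicate 4, at 1351, and its IL4 and TGFb values were all below that range. It rose with LPS+IFNg (log2 fold change 0.21 ± 0.06, limma, adjusted p = 0.00434), a call that was lost after rescaling to the same total (0.09 (adjusted p = 0.221) by limma), and its log2 fold change was -0.28 with IL4 and -0.72 with TGFb. Its partner cyclin Ccnb2 rose with LPS+IFNg as well (log2 fold change 0.51 ± 0.10, limma, adjusted p = 0.000222), and fell with TGFb. Ccna2, which encodes cyclin A2 of S and G2 phase, had values of 573, 558 and 496 with LPS+IFNg, within the untreated range of 487 to 619 with a median of 535, and lower ones of 369.9, 391 and 422 with IL4 and 322, 350.0 and 331 with TGFb.

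The phosphatases that switch Cdk1 on differed from each other. Cdc25c had normalized values of 82.1, 73.1 and 66.6 with LPS+IFNg, 37.6, 22.6 and 38.8 with IL4 and 25.5, 12.8 and 26.7 with TGFb. In untreated libraries Cdc25c ran from 53.2 to 66.2, with a median of 62.4. All IL4 and TGFb values were below the untreated range and all LPS+IFNg values above it, and per kb of transcript it was the least abundant member of its class. It had the largest decrease of any member with both IL4, -0.92 ± 0.21 (limma, adjusted p = 0.00462), and TGFb, -1.53 ± 0.21 (limma, adjusted p = 8.16e-06), although the IL4 call was lost without IL4 replicate 2, the library with the lowest of its IL4 values (-0.68 (adjusted p = 0.0606) by limma). Cdc25b had normalized values of 533, 558 and 541 with LPS+IFNg, 366, 312 and 382 with IL4 and 426, 469.5 and 389 with TGFb. In untreated libraries Cdc25b ran from 439 to 524, with a median of 480.3. It fell with IL4 only (log2 fold change -0.45 ± 0.08, limma, adjusted p = 0.000382), while its log2 fold change with TGFb was -0.17 ± 0.08 (limma, adjusted p = 0.0699); the direct difference between IL4 and TGFb is given above.

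Aurora A, encoded by Aurka, is the kinase of centrosomes and spindle poles, and it separated TGFb from the other groups. It had normalized values of 737, 765 and 793 with LPS+IFNg, 645, 572 and 642 with IL4 and 347, 352 and 356 with TGFb. In untreated libraries Aurka ran from 709.6 to 775, with a median of 750.1. The LPS+IFNg and untreated values overlapped, the IL4 values lay just under them, and the TGFb values were well under both. It was 2.12-fold lower with TGFb than in untreated cells, a log2 fold change of -1.08 ± 0.05 (limma, adjusted p = 8.09e-12), and it fell less with IL4 (log2 fold change -0.27 ± 0.05, limma, adjusted p = 0.00101). The IL4 minus TGFb difference of 0.81 ± 0.06 (limma, adjusted p = 3.33e-09) was the largest of any member. Plk1, the polo-like kinase of mitotic entry and exit, had normalized values of 608, 591 and 408 with LPS+IFNg, 307, 371 and 405 with IL4 and 286, 235 and 277 with TGFb. In untreated libraries Plk1 ran from 426 to 525, with a median of 464. LPS+IFNg replicates 1 and 2 were above all untreated libraries and replicate 3 was below them, so its log2 change was 0.17 ± 0.12 (limma, adjusted p = 0.227) with all 3 and 0.36 (adjusted p = 0.0064) by limma without replicate 3. Melk, a kinase of the same window of the cycle, had normalized values of 213, 202 and 217 with LPS+IFNg, 137, 133 and 140.1 with IL4 and 119.6, 113 and 144 with TGFb. In untreated libraries Melk ran from 131 to 186, with a median of 165, and it rose with LPS+IFNg (log2 fold change 0.36 ± 0.11, limma, adjusted p = 0.00651), though not after rescaling to the same total (0.24 (adjusted p = 0.0663) by limma).

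The spindle checkpoint kinases all fell with IL4 and with TGFb (3 of 3 each), and 2 of 3 rose with LPS+IFNg. Bub1b, which encodes BubR1, a brake on Cdc20, had normalized values of 2014, 1940 and 2506 with LPS+IFNg, 1345, 1266 and 1266 with IL4 and 1159, 1306 and 1136 with TGFb. In untreated libraries Bub1b ran from 1607 to 1748, with a median of 1675. LPS+IFNg replicate 3 was the highest of the 15 libraries. Its log2 fold change was 0.35 ± 0.07 (limma, adjusted p = 0.000206) with LPS+IFNg, -0.38 ± 0.07 (limma, adjusted p = 0.000531) with IL4 and -0.49 ± 0.07 (limma, adjusted p = 7.76e-06) with TGFb. Bub1, which recruits the checkpoint to kinetochores, had normalized values of 1304, 1208 and 1257 with LPS+IFNg, 857, 896 and 769.8 with IL4 and 682, 694 and 669.7 with TGFb. In untreated libraries Bub1 ran from 1008 to 1166, with a median of 1076. Every LPS+IFNg library was above the untreated ones and every IL4 and TGFb library below them, with log2 fold changes of 0.22, -0.36 and -0.66, and the first was no longer called after rescaling (0.09 (adjusted p = 0.164) by limma). Ttk, the kinase Mps1 at the head of the checkpoint, had a log2 change of -0.03 ± 0.09 (limma, adjusted p = 0.821) with LPS+IFNg.

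In the chromosomal passenger complex, which corrects faulty attachments and later guides cytokinesis, the 4 subunits did not move together with LPS+IFNg. Incenp, the scaffold subunit, had normalized values of 1430, 1414 and 1326 with LPS+IFNg, 1357, 1334 and 1428 with IL4 and 1064, 1118 and 1050 with TGFb. In untreated libraries Incenp ran from 1579 to 1671, with a median of 1639. No stimulated library reached the untreated range. It fell with all 3 stimuli, with log2 fold changes of -0.23 ± 0.04 (limma, adjusted p = 0.000107) with LPS+IFNg, -0.25 ± 0.04 (limma, adjusted p = 0.000345) with IL4 and -0.60 ± 0.04 (limma, adjusted p = 1.72e-09) with TGFb. Cdca8, which encodes borealin, had normalized values of 612, 574 and 607 with LPS+IFNg, 384, 456 and 502 with IL4 and 357, 299 and 304 with TGFb. In untreated libraries Cdca8 ran from 462 to 545, with a median of 502. Cdca8 rose with LPS+IFNg (log2 fold change 0.25 ± 0.08, limma, adjusted p = 0.0124), a call lost after rescaling (0.12 (adjusted p = 0.209) by limma) and under quantile normalization (0.19 (adjusted p = 0.0548) by limma). Aurkb, the kinase subunit, and Birc5, survivin, had log2 changes of 0.03 and 0.05 with LPS+IFNg, neither past the test. All 4 subunits fell with TGFb, and all but Cdca8 fell with IL4.

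Of the 7 centromere and kinetochore genes, 4 rose and 1 fell with LPS+IFNg, 6 fell with IL4 and all 7 fell with TGFb. Cenpe, a kinesin of the outer kinetochore that helps align chromosomes, had normalized values of 1572, 1448 and 1368 with LPS+IFNg, 681, 607 and 437 with IL4 and 545, 540.0 and 518 with TGFb. In untreated libraries Cenpe ran from 794 to 899, with a median of 865. Even the lowest LPS+IFNg value was far above the highest untreated one. It rose with LPS+IFNg (log2 fold change 0.77 ± 0.09, limma, adjusted p = 1.12e-06), the largest increase of any member, or 1.71-fold the untreated mean. It fell with IL4 (log2 fold change -0.59 ± 0.09, limma, adjusted p = 0.00021) and with TGFb (log2 fold change -0.68 ± 0.09, limma, adjusted p = 9.95e-06), so that the direct LPS+IFNg minus IL4 difference was 1.37. Cenpf, a large coiled-coil protein of the outer kinetochore, had normalized values of 714, 696 and 728 with LPS+IFNg, 369, 318 and 230.0 with IL4 and 317, 331 and 320.2 with TGFb. In untreated libraries Cenpf ran from 457 to 538, with a median of 504, and its log2 fold change was 0.52 ± 0.10 (limma, adjusted p = 0.000194) with LPS+IFNg and -0.73 ± 0.10 (limma, adjusted p = 4.03e-05) with IL4. Cenpa, the histone H3 variant that marks centromeres, had normalized values of 485, 477 and 488 with LPS+IFNg, 226, 264 and 322 with IL4 and 223, 198 and 223 with TGFb. In untreated libraries Cenpa ran from 322 to 391, with a median of 352. Cenpa rose with LPS+IFNg (log2 fold change 0.46 ± 0.09, limma, adjusted p = 0.000291) and fell with TGFb (log2 fold change -0.71 ± 0.09, limma, adjusted p = 3.54e-06), and its IL4 decrease of -0.39 was no longer called without IL4 replicate 1 (-0.27 (adjusted p = 0.0567) by limma).

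Cenpe, Cenpf and Mki67 shared a feature of 1 IL4 library. They are 3 of the 4 members with the longest transcripts (7.91, 11.1 and 10.1 kb in GENCODE M21), and all 3 had their lowest value of the 15 libraries in IL4 replicate 3. Over the 8410 genes that reached 50 in every library and had a known length, a library's deviation from its group mean had a rank correlation with transcript length of 0.33 in IL4 replicate 1 and -0.29 in IL4 replicate 3, against -0.10 to 0.14 in the other libraries. Over the 51 members these correlations were 0.33 and -0.35, against -0.34 to 0.22 in the other libraries, with the -0.34 in untreated replicate 6. The difference between IL4 and untreated means had a rank correlation with length of -0.29 over the members and -0.10 over the 8410 genes. For LPS+IFNg these were -0.13 and -0.03, and for TGFb -0.04 and 0.03. The part of length in the IL4 results was not tested. Without IL4 replicate 3 the log2 fold changes were -0.41 (adjusted p = 0.000521) for Cenpe, -0.54 (adjusted p = 7.96e-05) for Cenpf and -0.36 (adjusted p = 0.000154) for Mki67 by limma.

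The Ndc80 complex, a kinetochore complex of 4 subunits, was split with LPS+IFNg. Ndc80 itself had normalized values of 325, 289 and 327 with LPS+IFNg, 158, 136 and 160.0 with IL4 and 145, 192 and 126 with TGFb. In untreated libraries Ndc80 ran from 185 to 245, with a median of 209, and it rose with LPS+IFNg (log2 fold change 0.58 ± 0.12, limma, adjusted p = 0.000353). All 3 LPS+IFNg libraries were above all untreated ones. Its dimer partner Nuf2 had normalized values of 230.1, 254 and 218 with LPS+IFNg, 218, 205 and 252 with IL4 and 174, 181 and 178 with TGFb. In untreated libraries Nuf2 ran from 235 to 331, with a median of 284. It fell with LPS+IFNg (log2 fold change -0.28 ± 0.10, limma, adjusted p = 0.0157), with values that overlapped the untreated range and a call that was lost without LPS+IFNg replicate 3 (-0.23 (adjusted p = 0.0686) by limma). The other subunits are Spc24 and Spc25, whose log2 changes of 0.22 and -0.10 did not pass the test. With TGFb all 4 fell, with log2 fold changes of -0.68 ± 0.10 (limma, adjusted p = 1.11e-05) for Nuf2 and -0.46 ± 0.12 (limma, adjusted p = 0.00332) for Ndc80. With IL4 Ndc80, Nuf2 and Spc25 fell, and the call was lost for Ndc80 without IL4 replicate 2 (-0.40 (adjusted p = 0.0735) by limma) and for Nuf2 without IL4 replicate 1 (-0.33 (adjusted p = 0.066)) or replicate 2 (-0.28 (adjusted p = 0.12)).

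The 10 kinesin motors all fell with IL4 and with TGFb, whereas with LPS+IFNg 1 rose and none fell by the limma test (at an unadjusted p below 0.05, 4 were higher and 1 lower, and after rescaling 1 rose and 2 fell). Kif22, a motor on chromosome arms, was the one that rose (log2 fold change 0.38 ± 0.08, limma, adjusted p = 0.000797), with normalized values of 458, 452 and 449 with LPS+IFNg, 257, 237 and 310.3 with IL4 and 227, 194 and 219 with TGFb. In untreated libraries Kif22 ran from 303 to 368, with a median of 357. Its untreated replicate 2 was the lowest of its group, and no LPS+IFNg library overlapped the group. Kif20a, a motor of the midzone and cytokinesis with the highest mean of the class, had normalized values of 1148, 1063 and 883 with LPS+IFNg, 796, 738 and 822 with IL4 and 494, 602 and 485 with TGFb. In untreated libraries Kif20a ran from 990.4 to 1097, with a median of 1045. The TGFb values were the lowest, with a log2 fold change of -0.99 ± 0.08 (limma, adjusted p = 5.27e-09), against -0.41 ± 0.08 (limma, adjusted p = 0.000836) with IL4. Kif23, the motor subunit of centralspindlin, had normalized values of 679, 687 and 667 with LPS+IFNg, 527, 517 and 509 with IL4 and 362, 344 and 361 with TGFb. In untreated libraries Kif23 ran from 607 to 703, with a median of 658; it fell with TGFb (log2 fold change -0.88 ± 0.06, limma, adjusted p = 4.04e-10) and with IL4 (log2 fold change -0.34 ± 0.06, limma, adjusted p = 0.00028). Kif11, the motor that pushes spindle poles apart, fell with TGFb (log2 fold change -0.52 ± 0.06, limma, adjusted p = 6.15e-07) and had one of the smaller TGFb decreases of the class. Kif15, which backs up Kif11, had normalized values of 227, 243 and 228 with LPS+IFNg, 222, 174 and 185 with IL4 and 208, 166 and 193 with TGFb. In untreated libraries Kif15 ran from 255 to 288, with a median of 268; with LPS+IFNg all 3 values were below the untreated ones, with a log2 change of -0.21 ± 0.09 (limma, adjusted p = 0.0515). Kif4, a chromatin-bound motor, had normalized values of 519.9, 502 and 552 with LPS+IFNg, 446, 452 and 484 with IL4 and 308, 286 and 319 with TGFb. In untreated libraries Kif4 ran from 503 to 594, with a median of 527. Its decrease was -0.82 ± 0.06 (limma, adjusted p = 5.27e-09) with TGFb and -0.23 with IL4, and the IL4 call was lost without IL4 replicate 1 (-0.20 (adjusted p = 0.0816) by limma) or replicate 2 (-0.21 (adjusted p = 0.0851) by limma).

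Of the 8 spindle, midzone and cytokinesis genes, 4 rose with LPS+IFNg, 7 fell with IL4 and all 8 fell with TGFb. Tpx2, which activates Aurora A and seeds spindle microtubules, had the highest mean of the class, with normalized values of 2586, 2365 and 2855 with LPS+IFNg, 1502, 1460 and 1507 with IL4 and 1215, 1310 and 1169 with TGFb. In untreated libraries Tpx2 ran from 1946 to 2040, with a median of 2007. Tpx2 rose with LPS+IFNg (log2 fold change 0.38 ± 0.05, limma, adjusted p = 4.57e-06) and fell with TGFb (log2 fold change -0.70 ± 0.05, limma, adjusted p = 3.04e-09). Nusap1, a protein that bundles spindle microtubules near chromosomes, had normalized values of 706, 578 and 701 with LPS+IFNg, 322, 357 and 359.8 with IL4 and 283, 282 and 309 with TGFb. In untreated libraries Nusap1 ran from 419.6 to 482, with a median of 443, and every LPS+IFNg library was above every untreated one (log2 fold change 0.57 ± 0.07 (limma, adjusted p = 1.47e-06)). Hmmr, a spindle-pole protein also known as a hyaluronan receptor, had normalized values of 947, 883 and 854 with LPS+IFNg, 509.8, 534 and 505 with IL4 and 334, 309 and 327 with TGFb. In untreated libraries Hmmr ran from 667 to 766, with a median of 713. It was next to Cdc25c in the size of its decrease with TGFb, -1.14 ± 0.06 (limma, adjusted p = 1.59e-11) or 2.21-fold lower, and fell with IL4 (log2 fold change -0.47 ± 0.06, limma, adjusted p = 1.21e-05). The direct LPS+IFNg minus TGFb difference of 1.46 ± 0.07 (limma, adjusted p = 6.45e-13) was among the 3 largest of any member. Prc1, which crosslinks midzone microtubules, Anln, the contractile-ring scaffold anillin, and Ckap2 fell with IL4 and TGFb and did not pass with LPS+IFNg; Ect2, the exchange factor that switches on RhoA at the cleavage furrow, fell with TGFb.

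The anaphase genes held the member with the smallest log2 changes with IL4 and with TGFb. Cdc20, the activator of the APC/C, had normalized values of 896, 896 and 794 with LPS+IFNg, 387, 457 and 492 with IL4 and 345, 314 and 316 with TGFb. In untreated libraries Cdc20 ran from 541 to 665, with a median of 574. All LPS+IFNg libraries were above and all IL4 and TGFb libraries below the untreated range. It rose with LPS+IFNg (log2 fold change 0.55 ± 0.08, limma, adjusted p = 5.65e-06), and fell with IL4 (log2 fold change -0.40 ± 0.08, limma, adjusted p = 0.00106) and with TGFb (log2 fold change -0.85 ± 0.08, limma, adjusted p = 4.44e-08). Its E2 enzyme Ube2c rose with LPS+IFNg (log2 fold change 0.50 ± 0.10, limma, adjusted p = 0.00024) and fell with TGFb (log2 fold change -0.56 ± 0.10, limma, adjusted p = 0.00011). Pttg1, securin, which holds separase inactive until the APC/C destroys it, is named because of its values. It had normalized values of 166, 116 and 149 with LPS+IFNg, 98.6, 83.3 and 101 with IL4 and 95.8, 102 and 111 with TGFb. In untreated libraries Pttg1 ran from 70.0 to 113, with a median of 102. It rose with LPS+IFNg (log2 fold change 0.54 ± 0.14, limma, adjusted p = 0.00331), and its IL4 and TGFb values overlapped the untreated ones, with log2 changes of -0.05 ± 0.14 (limma, adjusted p = 0.869) and 0.08 ± 0.14 (limma, adjusted p = 0.669). Espl1, separase itself, the protease that cuts cohesin, had normalized values of 1162, 1154 and 1042 with LPS+IFNg, 884, 757 and 955 with IL4 and 875, 756 and 866 with TGFb. In untreated libraries Espl1 ran from 1065 to 1249, with a median of 1204. It fell with IL4 (log2 fold change -0.46 ± 0.07, limma, adjusted p = 0.000145) and with TGFb (log2 fold change -0.52 ± 0.07, limma, adjusted p = 8.36e-06). Cdca5, which encodes the cohesin protector sororin, had normalized values of 305, 273 and 370.3 with LPS+IFNg, 265, 264 and 233 with IL4 and 221, 201 and 219 with TGFb. In untreated libraries Cdca5 ran from 258 to 294, with a median of 275, and of the 3 stimuli it passed with TGFb, at -0.37 ± 0.09 (limma, adjusted p = 0.00192).

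The mitotic chromosome proteins all fell with IL4 and TGFb (4 of 4 each), and 2 of 4 rose with LPS+IFNg. Top2a, the topoisomerase that untangles sister chromatids, was the most abundant member per kb of its longest annotated transcript. Its mean in untreated libraries was 680 per kb, against 22.5 per kb for Kif18a, the least abundant by this measure. Top2a had normalized values of 4761, 4169 and 5264 with LPS+IFNg, 2842, 2695 and 2740 with IL4 and 2370, 2378 and 2327 with TGFb. In untreated libraries Top2a ran from 3431 to 3662, with a median of 3557. The 3 LPS+IFNg libraries were above all others, with a log2 fold change of 0.41 ± 0.06 (limma, adjusted p = 3.94e-06). Mki67, the surface coat protein of mitotic chromosomes that is stained as Ki-67, had normalized values of 4205, 3885 and 4203 with LPS+IFNg, 3246, 2910 and 2421 with IL4 and 2571, 2755 and 2657 with TGFb. In untreated libraries Mki67 ran from 3809 to 4057, with a median of 3953. With LPS+IFNg replicates 1 and 3 lay above the untreated range and replicate 2 within it, and the log2 change of 0.05 ± 0.06 (limma, adjusted p = 0.518) was not past the test. Cdca3, a trigger of mitotic entry, had normalized values of 657, 675 and 732 with LPS+IFNg, 446, 428 and 469 with IL4 and 308, 295 and 286 with TGFb. In untreated libraries Cdca3 ran from 454 to 577, with a median of 542, with log2 fold changes of 0.37 ± 0.07 (limma, adjusted p = 0.00024) for LPS+IFNg and -0.84 ± 0.07 (limma, adjusted p = 2.7e-08) for TGFb. Its IL4 change of -0.24 ± 0.07 (limma, adjusted p = 0.0257) was lost as a call when any 1 of IL4 replicates 1 or 2 or untreated replicates 1, 5 or 6 was left out (log2 change -0.24 to -0.21).

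**Figure D4:**
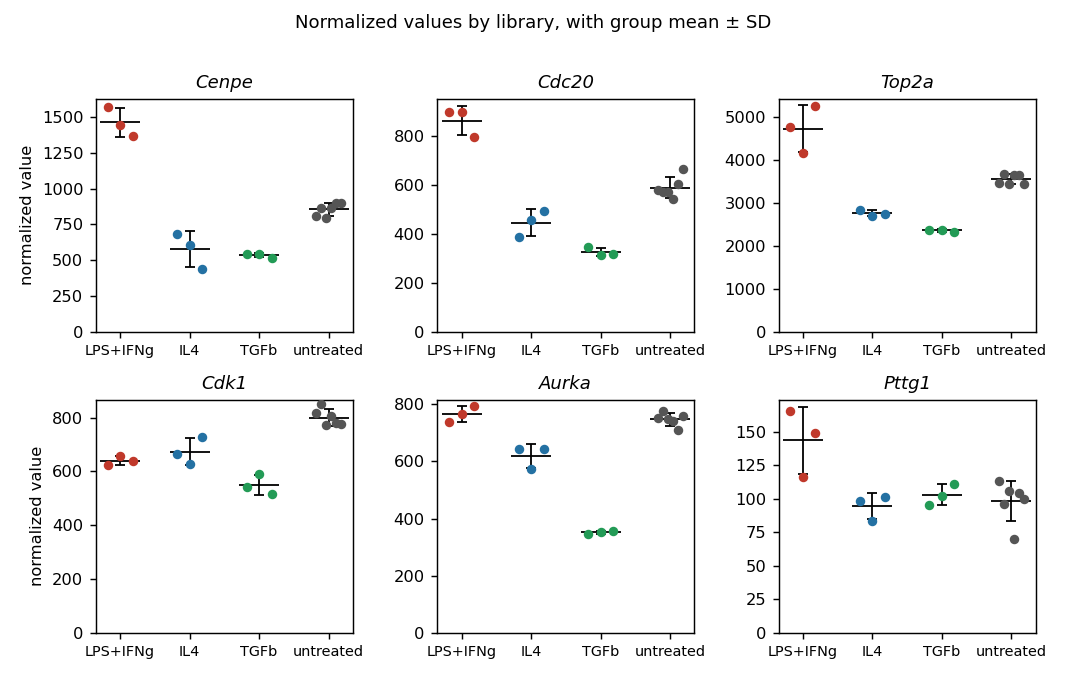
Normalized values of 6 members in each library (dots) with group means and SD (bars), for LPS+IFNg, IL4, TGFb and untreated cells from left to right; each vertical axis starts at 0. Cenpe, Cdc20 and Top2a are highest with LPS+IFNg, Cdk1 is below untreated in all 3 stimuli, Aurka is lowest with TGFb, and Pttg1 is highest with LPS+IFNg.

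Other genes of mitosis were taken from 5 lists of 123 genes that hold none of the 51. With LPS+IFNg 40 rose and 25 fell (median log2 fold change 0.10), with IL4 2 rose and 40 fell (-0.20), and with TGFb 9 rose and 81 fell (-0.33). As shares, 32.5% rose and 20.3% fell with LPS+IFNg (29.5% and 29.4% of all genes), 1.63% and 32.5% with IL4 (9.89% and 7.33% of all genes), and 7.32% and 65.9% with TGFb (24.1% and 23.4% of all genes). With LPS+IFNg the share that rose is close to that over all genes, and the share that fell is below it. The 35 other spindle, centrosome and cytokinesis genes gave 14 higher and 6 lower with LPS+IFNg (40% and 17.1%). With IL4 18 were lower (51.4%), and with TGFb 1 was higher and 27 lower (2.86% and 77.1%). Aspm, a spindle-pole protein needed for neural progenitor divisions, averaged 278 ± 10.5 with IL4 and 466 ± 22.2 in untreated libraries (SD, n = 3 and 6), a log2 fold change of -0.74 ± 0.07 (limma, adjusted p = 4.38e-07). The 17 condensin and cohesin genes gave 5 higher and 4 lower with LPS+IFNg (29.4% and 23.5%, near the shares of all genes), 7 lower with IL4, and 2 higher and 12 lower with TGFb. The condensin subunit Ncapg averaged 713 ± 141 with LPS+IFNg and 459 ± 24.6 in untreated libraries, with LPS+IFNg replicate 3 the highest. The 36 other kinetochore and centromere genes gave 10 higher and 3 lower with LPS+IFNg (27.8% and 8.33%), of which the first is near the share of all genes. With IL4 they gave 1 higher and 10 lower (2.78% and 27.8%), and with TGFb 24 lower (66.7%). Of the 17 APC/C genes 3 rose and 6 fell with LPS+IFNg (17.6% and 35.3%), 1 rose with IL4 (5.88%), and 4 rose and 7 fell with TGFb (23.5% and 41.2%). Anapc15, a small subunit of the ligase, rose with TGFb (log2 fold change 0.84 ± 0.11, limma, adjusted p = 3.49e-06).

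Of 18 regulators of mitotic transcription and entry, 8 rose and 6 fell with LPS+IFNg (44.4% and 33.3%, against 29.5% and 29.4% of all genes). With IL4 5 fell (27.8%, against 7.33%), and with TGFb 2 rose and 11 fell (11.1% and 61.1%, against 24.1% and 23.4%). Foxm1, the forkhead factor of G2 genes, averaged 467 ± 49.7 with LPS+IFNg and 396 ± 26.1 in untreated libraries, a log2 fold change of 0.24 ± 0.08 (limma, adjusted p = 0.0117). Mybl2, which encodes B-MYB, averaged 1001 ± 132 with LPS+IFNg and 1295 ± 35.8 in untreated libraries and fell (log2 fold change -0.38 ± 0.06, limma, adjusted p = 2.69e-05). With TGFb both fell, with log2 fold changes of -0.68 ± 0.08 (limma, adjusted p = 6.77e-07) for Foxm1 and -0.81 ± 0.06 (limma, adjusted p = 3.46e-09) for Mybl2. Mastl, the Greatwall kinase that protects Cdk1 substrates from dephosphorylation, rose with LPS+IFNg (log2 fold change 0.84 ± 0.11, limma, adjusted p = 2.7e-06), while Wee1, the kinase that inhibits Cdk1, fell (log2 fold change -0.75 ± 0.08, limma, adjusted p = 2.34e-07).

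Genes of the earlier phases were read beside the mitotic ones, with no test of the difference between the lists. Of 41 DNA replication genes 4 rose and 26 fell with LPS+IFNg (9.76% and 63.4%, against 29.5% and 29.4% of all genes), with a median log2 fold change of -0.30. For the 51 mitosis genes the counts were 21 and 3 and the median 0.19. With IL4 18 fell and none rose by limma (25 and 0 at an unadjusted p below 0.05, median -0.21), and with TGFb 2 rose and 30 fell (-0.37). After rescaling to the same total the LPS+IFNg counts were 2 and 32 for replication, and 17 and 8 for mitosis. Of all 11138 genes 2435 then rose and 4416 fell. Uhrf1, which carries DNA methylation over to new strands, averaged 658 ± 3.56 with LPS+IFNg and 1301 ± 33.7 in untreated libraries, and Mcm2, a subunit of the replicative helicase, 811 ± 41.0 with LPS+IFNg and 1372 ± 63.9 in untreated libraries; their log2 fold changes were -0.98 ± 0.05 (limma, adjusted p = 1.33e-12) and -0.76 ± 0.05 (limma, adjusted p = 2.72e-10). Of 7 G1 cyclins and kinases 1 rose and 5 fell with LPS+IFNg (14.3% and 71.4%), none passed with IL4 by limma (none at an unadjusted p below 0.05 either), and 5 fell with TGFb. Ccne2, cyclin E2 of S phase entry, averaged 75.0 ± 34.1 with LPS+IFNg and 349 ± 42.3 in untreated libraries, a log2 fold change of -2.29 ± 0.17 (limma, adjusted p = 1.74e-09). Ccnd1, cyclin D1, averaged 880.0 ± 28.5 with TGFb and 1698 ± 87.1 in untreated libraries, a log2 fold change of -0.95 ± 0.06 (limma, adjusted p = 3.02e-10).

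**Figure D5:**
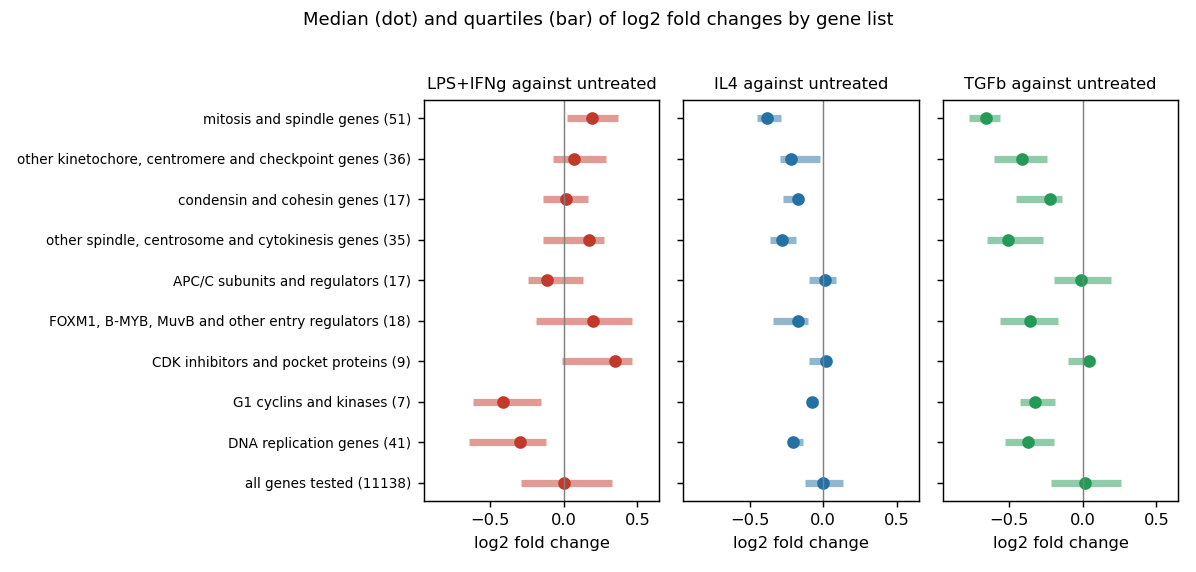
Median (dot) and quartiles (bar) of log2 fold changes against untreated cells over the 51 mitosis and spindle genes, the 8 other cell cycle lists and all 11138 genes tested, for LPS+IFNg, IL4 and TGFb from left to right. With LPS+IFNg the median is 0.19 for the 51 genes and -0.30 for 41 DNA replication genes, and with TGFb both lie below 0 (-0.66 and -0.37).

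The members' promoters were read for motifs known in this class. RefSeq windows on GRCm38.p6, from 250 bases before to 50 after the annotated start, were found for 43 of the 51 genes; Aurkb, Ccna2, Cdc25c, Cdca2, Incenp, Kif20a, Spc24 and Tpx2 had none. The CHR element was searched as TTTGAA or TTCGAA and the CCAAT box as CCAAT, on both strands, so that ATTGG and TTCAAA are matches on the other strand. A CHR and a CCAAT match shared bases in 1 window, that of Cdca8, and CCAAT matches shared bases with each other in 1, that of Ube2c. A CHR match was in 34 of 43 windows (79.1%), against 9 of 34 DNA replication genes (26.5%), 13.7% of 8535 genes of the deposited table and 19.4% of all 27025 promoters. A CCAAT match was in 32 of 43 (74.4%), against 61.8%, 39.5% and 37.9%. Both were in 67.4%, against 17.6%, 6.02% and 7.7%. Of the 20 windows of genes that rose with LPS+IFNg, 70% held a CHR match and 70% held 2 or more CCAAT matches; of the 23 others, 87% and 34.8% did. For genes with several windows, Prc1 and Ect2 among the members, the table's first was read. Since the genes were split by their values, these shares are a description of letters and not of binding.

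The 4 windows that follow are examples that hold both motifs. They are printed 5′ to 3′ on the strand of the gene, with every CHR and CCAAT match in capitals. Cdc20 (window chr4:118437294-118437593, minus strand) and Top2a (chr11:99024140-99024439, minus strand) rose with LPS+IFNg and fell with IL4 and TGFb. Aurka (chr2:172370521-172370820, minus strand) had the deepest TGFb decrease among members with a window after Hmmr, and Cdk1 (chr10:69352863-69353162, minus strand) fell with all 3 stimuli.
Cdc20: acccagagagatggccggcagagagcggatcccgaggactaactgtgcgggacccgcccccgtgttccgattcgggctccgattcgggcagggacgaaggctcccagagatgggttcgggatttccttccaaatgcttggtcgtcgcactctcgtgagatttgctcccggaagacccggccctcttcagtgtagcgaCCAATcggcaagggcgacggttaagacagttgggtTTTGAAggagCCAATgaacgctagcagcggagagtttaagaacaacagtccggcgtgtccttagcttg
Top2a: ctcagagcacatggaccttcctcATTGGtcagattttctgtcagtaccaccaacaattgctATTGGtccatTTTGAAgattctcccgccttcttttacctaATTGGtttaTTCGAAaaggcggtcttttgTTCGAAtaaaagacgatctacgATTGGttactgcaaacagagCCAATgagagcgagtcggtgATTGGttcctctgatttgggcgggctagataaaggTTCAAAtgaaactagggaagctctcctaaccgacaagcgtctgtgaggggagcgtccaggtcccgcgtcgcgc
Aurka: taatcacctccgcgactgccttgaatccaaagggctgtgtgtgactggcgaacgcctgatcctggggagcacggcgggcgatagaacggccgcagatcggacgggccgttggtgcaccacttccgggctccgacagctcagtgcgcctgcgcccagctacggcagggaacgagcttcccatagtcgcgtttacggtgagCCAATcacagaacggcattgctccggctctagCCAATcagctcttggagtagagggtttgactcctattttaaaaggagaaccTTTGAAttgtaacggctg
Cdk1: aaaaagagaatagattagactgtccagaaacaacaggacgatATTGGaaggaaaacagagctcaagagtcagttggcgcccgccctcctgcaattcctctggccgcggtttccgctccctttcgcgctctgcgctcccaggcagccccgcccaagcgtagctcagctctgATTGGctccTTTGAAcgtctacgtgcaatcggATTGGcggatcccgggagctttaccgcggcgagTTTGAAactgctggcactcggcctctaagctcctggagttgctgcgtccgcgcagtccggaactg
In Cdc20 a CHR match starts 18 bases before the transcription start, between CCAAT matches at 53 and 8 bases before it. Top2a holds 4 CHR matches, the nearest 23 bases before the start, and 6 CCAAT matches. Aurka has its CHR match 33 bases after the start and CCAAT matches 51 and 19 bases before it. Cdk1 has CHR matches 71 and 15 bases before the start and CCAAT matches 208, 80 and 48 bases before it. Cdk1, which fell with LPS+IFNg, and Cdc20 and Top2a, which rose, all hold both motifs. The windows of Melk, Nusap1 and Pttg1, which also rose, and of Nuf2, which also fell, hold neither.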

How the data were processed

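Per the labels' protocols, RNA extracted with TRIZOL from cultured cells was made into Illumina TruSeq libraries. Per the submitters' processing notes, TopHat2 2.0.3, Partek 6.6, R 3.0.2 and DESeq2 were used with build mm10. The annotation, the counting rule and the use of strand are not given in the sources used here, and reads of overlapping or antisense genes may be mixed. The authors deposited 1 normalized signal per gene and library. The lower values show that it is a read count divided by 1 factor per library, with values below 1 set to 1. Among them, every value above that floor was a whole number of reads within 0.01 reads. For high values the printed digits allow only a wider tolerance. Of 11201 genes 276 have a value at the floor, none of them described here. The recovered reads were used for depth only. All 15 columns were used and 0 left out.

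From these values, limma 3.58.1 in R 4.3.3 was fitted to log2(value + 1) with the empirical Bayes trend, in 1 fit over all 15 libraries with 4 group means and 6 contrasts, for the 11138 genes that reached 10 in 3 or more libraries. A gene was called where its p, adjusted by Benjamini and Hochberg over those genes in each contrast, was below 0.05. The scripts were tested on simulated data. Replicate numbers follow the order of the samples and pair nothing. Tables were handled with Python 3.11.15, pandas 2.3.3 and numpy 2.4.6. Gene positions and transcript lengths came from GENCODE M21 and promoters from RefSeq. The length of a gene was that of its longest annotated transcript, and ranks per kb depend on that choice.

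The gene set and all lists were chosen with earlier results of these data known, so no pattern here is independent support. Members given by library are, by rule, the highest and the strongest called of each role class, the 3 highest and 3 lowest called of each comparison and those called against the majority, 32 in all, of which the main ones are printed; Plk1, Cdca8, Ccnb2, Ube2c, Ttk and Pttg1 were added after their values were seen. Of other lists, up to 3 called genes per list and comparison were eligible, and Foxm1 and Mybl2 with LPS+IFNg were added. Alternatives were rescaling, quantile normalization, other pseudocounts and filters, fits of 2 groups, left-out libraries and array weights.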

Additional observations from a re-analysis of the deposited data

Results flagged for a closer look

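In 4 of the 51 genes, 1 of the 6 untreated libraries stood apart from the other 5 by Dixon's test. Ccnb1 was highest in untreated replicate 4, at 1351, with the next value at 1169. Kif22 was lowest in untreated replicate 2, at 303, with the next at 353. Anln was lowest in untreated replicate 1, at 647, with the next at 717. Espl1 was lowest in untreated replicate 4, at 1065, with the next at 1189. Chance flags about 1 in 20 groups, and 51 genes were looked at in this way. The groups of 3 libraries are too small for this test.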

How the results depend on the processing

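No direction reversed in the median of any of the 6 comparisons or in any called member under the alternatives run. Genes of the other lists were not checked 1 by 1. After rescaling to the same total, 8 members fell with LPS+IFNg against untreated in place of 3. Of all 11138 genes 4416 then fell in place of 3278. The members' median log2 fold change was 0.069 there, against -0.12 over all genes. It lay 0.19 above the median of all genes both as deposited and rescaled. The other rescaled medians of members were -0.45 for IL4 and -0.73 for TGFb against untreated. They were 0.50 for LPS+IFNg against IL4 and 0.86 for LPS+IFNg against TGFb. Under quantile normalization the medians were 0.12 (LPS+IFNg against untreated), 0.46 (against IL4) and 0.84 (against TGFb). With array weights, an alternative chosen after seeing the data that gave LPS+IFNg replicate 3 a weight of 0.13, the medians were 0.25 (LPS+IFNg against untreated) and 0.85 (against TGFb). Without the 3 libraries with the fewest reads, 0 members were lower in IL4 than in TGFb. In the rescaled LPS+IFNg comparison 9 members not called changed the sign of their log2 change.

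Leaving out 1 library at a time gave 21 to 25 members higher and 2 to 4 lower with LPS+IFNg, 35 (without IL4 replicate 2) to 46 lower with IL4 and 48 to 50 lower with TGFb, each against untreated. Between stimuli it gave 45 to 46 higher for LPS+IFNg against IL4, 49 to 51 against TGFb, and 24 to 29 higher and 0 to 1 lower for IL4 against TGFb, the 0 without IL4 replicate 2 or TGFb replicate 2. No paired analysis was possible because the labels give the libraries no shared replicate numbers. Count tests on recovered reads were listed as an alternative and not run. Depth limits Cdc25c most, with 6 reads in its lowest library. Reads are not independent molecules.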
